A study of Mus musculus with 7 samples.

Results

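The miR-381 to miR-410 segment is the distal end of the microRNA (miRNA) cluster of the imprinted Dlk1-Dio3 domain on mouse chromosome 12. Its members were all rows named for the hairpins of miR-381, miR-487b, miR-382, miR-134, miR-485, miR-154, miR-377, miR-409, miR-369 and miR-410, in any arm or star form. The array carried 15 such rows from the 10 hairpins among its 696 mouse miRNAs, and 11 rows from 8 hairpins were among the 252 mouse miRNAs of the processed table. The rule uses names and position alone and no measured value, although it was set with earlier results of these data known.

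MiRNAs were measured on 7 one-colour Agilent mouse arrays, 1 RNA preparation each, from soft tissue sarcoma cells of p53-null mice (C57BL/6), so that the control cells lack p53 as well. Control primary cells carried a non-target shRNA (2 arrays), and Rb-depleted primary cells carried 1 shRNA against Rb (2 arrays). Rb-depleted secondary cells carried the same Rb shRNA and came from spheres grown without serum in methylcellulose with B27, EGF and bFGF, which were then passaged once in 2D culture (3 arrays). Transduced cells were selected with puromycin. All Rb-depleted arrays rest on a single shRNA, no arrays of control secondary cells were analysed here, and the sources used here do not say whether replicates came from separate cultures, so p-values measure only the spread between these arrays. Secondary cells therefore differ from control primary cells in both Rb shRNA and sphere passage, and these cannot be told apart in that comparison. The arrays measure miRNAs only, so neither Rb mRNA nor sarcoma marker genes could be checked, and in bulk RNA fewer cells expressing a miRNA cannot be told apart from less miRNA per cell.

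In the Dlk1-Dio3 domain the protein-coding genes Dlk1, Rtl1 and Dio3 are expressed from the paternal chromosome, while the long noncoding RNAs Meg3, Rian and Mirg and the miRNAs lying among them are expressed from the maternal one. The miRNAs are thought to be cut from long transcripts that run through the domain, and they are known for high levels in embryos and brain and low levels in most adult tissues. A hairpin gives a 5p and a 3p arm, and the arm that is loaded less often was formerly marked with a star. A mature miRNA finds its targets mainly through its seed. Among the best-known members, miR-134 limits dendritic spine size by repressing Limk1, miR-485 acts at synapses on Sv2a, and the 3p arm of miR-369 binds the AU-rich element of Tnf mRNA.

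On NCBIM37, the 10 hairpins lay on the plus strand between chr12:110965032 and chr12:110982005, a span of 16974 bases that holds 16 annotated miRNA genes. The hairpins of miR-381, miR-487b, miR-382, miR-134 and miR-485 lay in no annotated host gene. The other 5 lay within Mirg (chr12:110973191-110987665), those of miR-154 and miR-409 in its introns and those of miR-377, miR-369 and miR-410 in its exons. Mature sequences of 13 of the 15 rows were in RefSeq (GRCm38.p6), and their 13 seeds were all different. The sequences of both arms of miR-382 (hairpin chr12:110971979-110972058) and of miR-154 (hairpin chr12:110976634-110976717) are shown first because the arms of each hairpin were compared with each other. Capitals mark the seed, bases 2 to 8, and sequences run 5′ to 3′.
miR-382 (5p arm): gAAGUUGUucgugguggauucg
miR-382* (3p arm): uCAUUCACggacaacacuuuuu
miR-154 (5p arm): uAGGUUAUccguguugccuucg
miR-154* (3p arm): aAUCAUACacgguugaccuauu

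The next sequences belong to the pair of members that passed a test between groups, miR-377 (hairpin chr12:110978720-110978787) and miR-409-3p (hairpin chr12:110981368-110981446), and to the other arm of miR-409.
miR-377 (3p arm): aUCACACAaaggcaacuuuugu
miR-409-5p: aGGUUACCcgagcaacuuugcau
miR-409-3p: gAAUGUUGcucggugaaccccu

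The last 2 sequences are shown because each resembles miR-154*, from another hairpin of the segment.
miR-369-3p: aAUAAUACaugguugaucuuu
miR-485-3p: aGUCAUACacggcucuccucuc
Counted from the 5′ end, miR-154* and miR-369-3p had the same base at 17 of 21 positions and at 6 of the 7 seed positions, and miR-154* and miR-485-3p at 16 of 22 positions and 6 seed positions. The 5p arms of miR-382 and miR-154 matched at 15 of 22 positions and 5 seed positions. MiR-154* was detected on all 7 arrays, while miR-369-3p, miR-485-3p and miR-485-5p were each detected on 0 of 7. These 3 rows and miR-134-5p are the members outside the processed table.

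The members were low miRNAs on these arrays. Their mean normalized signal ran from 4.34 (miR-382*) to 7.03 (miR-377) on the log2 scale, and 10 of 11 lay below 6.90, the median miRNA of the table. Such levels come from different probes and do not rank the miRNAs by amount. Before normalization, the 11 members held 0.168% and 0.182% of the summed signal of the 252 miRNAs in control cells, 0.128% and 0.0981% on Rb-depleted primary arrays, and 0.121%, 0.130% and 0.125% in secondary cells. Every Rb-depleted array was thus below both control arrays in the share of signal held by the segment.

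**Figure D1:**
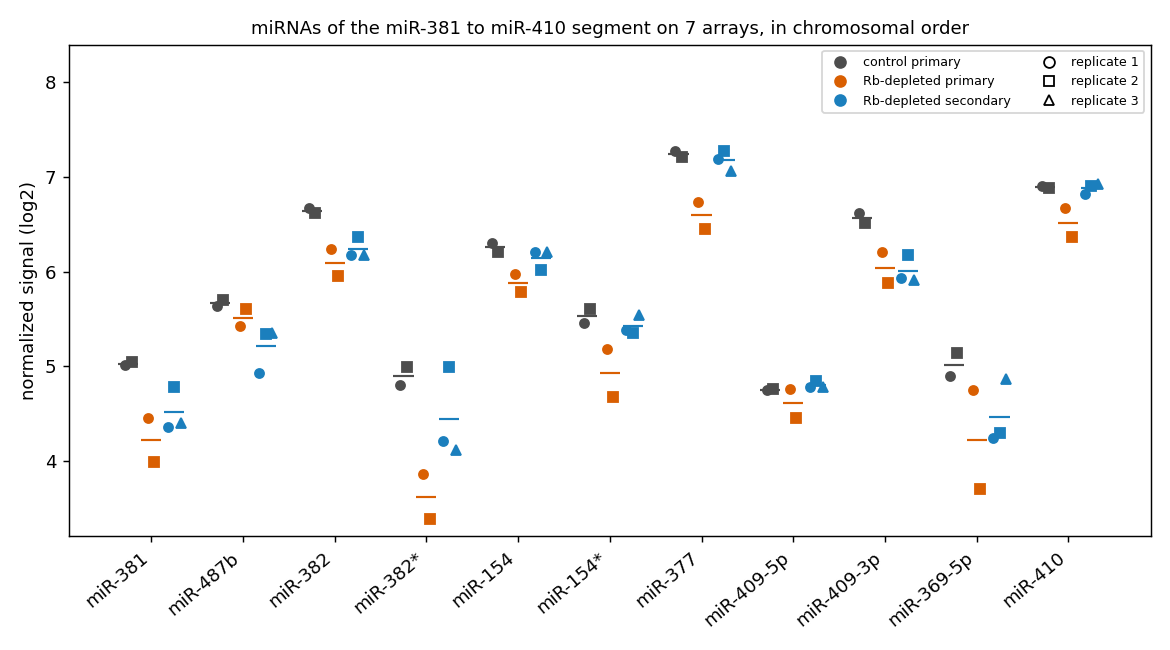
Normalized signal (log2, vertical axis) of the 11 members of the processed table in chromosomal order (horizontal axis). Points are arrays, coloured by group and shaped by replicate number, and lines are group means. The control arrays lie above both Rb-depleted primary arrays for all members except miR-409-5p, and miR-377, miR-154* and miR-410 lie near the control level again in secondary cells.

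The first comparison asks how the segment differed with Rb depletion alone, in primary cells. All 11 members had a lower mean in Rb-depleted primary than in control primary cells, with a median log2 difference of -0.55 against 0.0082 over the 252 miRNAs, of which 48.8% were lower. For 10 of 11 members both Rb-depleted arrays lay below both control arrays, which held for 26.6% of all miRNAs. None of the 11 passed a Benjamini-Hochberg adjusted p of 0.05 in limma, 1.59% of the 252 did, and the members' adjusted p-values ran from 0.0950 to 0.577. At an unadjusted p under 0.05, 8 of 11 members were lower, against 14.7% of all miRNAs.

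In the deposited values the largest difference was that of miR-382*, whose log2 signal was 4.81 and 4.99 in control cells and 3.86 and 3.38 in Rb-depleted primary cells. The groups did not overlap, and the difference was -1.28 (SE 0.34, limma adjusted p 0.113), or 2.42-fold lower. A part of that difference follows the number of probes summed, as described for the arms of miR-382 further on, and with the same probes on every array it was -0.71 (limma adjusted p 0.129). MiR-381 then had the largest difference, with -0.74 (limma adjusted p 0.124).

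For miR-377, the log2 signal was 7.27 and 7.21 in control cells and 6.74 and 6.45 in Rb-depleted primary cells. It had the lowest adjusted p of the members in this comparison, with a difference of -0.64 (SE 0.13, limma adjusted p 0.0950), or 1.56-fold lower. The log2 signal of miR-381 was 5.01 and 5.04 in control cells against 4.46 and 3.99, a difference of -0.81 (SE 0.21, limma adjusted p 0.113). Neither overlapped between the groups, and in both the second Rb-depleted array was the lower one.

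The log2 signal of miR-382 was 6.67 and 6.62 in control cells and 6.24 and 5.95 in Rb-depleted primary cells (difference -0.55, SE 0.13, limma adjusted p 0.102). That of miR-409-3p was 6.62 and 6.51 against 6.21 and 5.88 (difference -0.52, SE 0.15, limma adjusted p 0.141). That of miR-410 was 6.90 and 6.88 against 6.67 and 6.36 (difference -0.38, SE 0.12, limma adjusted p 0.142). In each of these the Rb-depleted arrays differed more from each other than the control arrays did. The arms of miR-154 were likewise lower without overlap. The 5p arm read 6.30 and 6.21 in control cells and 5.98 and 5.78 in Rb-depleted primary cells (difference -0.37, SE 0.12, limma adjusted p 0.141), and the 3p arm 5.46 and 5.60 against 5.18 and 4.67 (difference -0.60, SE 0.18, limma adjusted p 0.141).

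The remaining members showed the weakest separation. The log2 signal of miR-487b was 5.64 and 5.70 in control cells and 5.42 and 5.60 in Rb-depleted primary cells (difference -0.16, SE 0.17, limma adjusted p 0.577). For miR-369-5p it was 4.90 and 5.13 against 4.74 and 3.70, so that the difference of -0.80 (SE 0.39, limma adjusted p 0.268) rested mainly on 1 array. For miR-409-5p it was 4.74 and 4.76 against 4.76 and 4.46, and this was the only member whose groups overlapped (difference -0.14, SE 0.12, limma adjusted p 0.483).

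The second Rb-depleted primary array was lower than the first for 10 of 11 members, miR-487b being the exception. Without that array, the median difference of the members from control cells was -0.35, and without the first it was -0.69, with the lone array assumed to vary like the other groups. Without the first array 4 members passed a limma adjusted p of 0.05, against 8.73% of all 252 miRNAs, and without the second 0 did, against 0.0% of all. How far that array's preparation bears on the size of the difference was not tested.

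The direction was also seen on the level of single probes. Before normalization, all 26 probes of the 12 detected rows (miR-134-5p included) were below both control arrays on both Rb-depleted primary arrays, as were 52.7% of the 765 probes of all mouse miRNAs detected on any array. They were also below both control arrays on all 3 secondary arrays, as were 61.0% of the 765. For the 22 probes with a signal over 1 on every array, the log2 difference between Rb-depleted primary and control cells ran from -1.23 to -0.52, with a median of -0.87, against -0.27 for 611 such probes of all detected mouse miRNAs. These values include a shift of the arrays as a whole, since without normalization the median of all 252 miRNAs was -0.26 in primary and -0.46 in secondary cells relative to control cells. Without normalization 7 of 11 members passed the limma test against control cells in primary cells, against 10.7% of all 252 miRNAs, and 8 in secondary cells, against 45.2%.

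**Figure D2:**
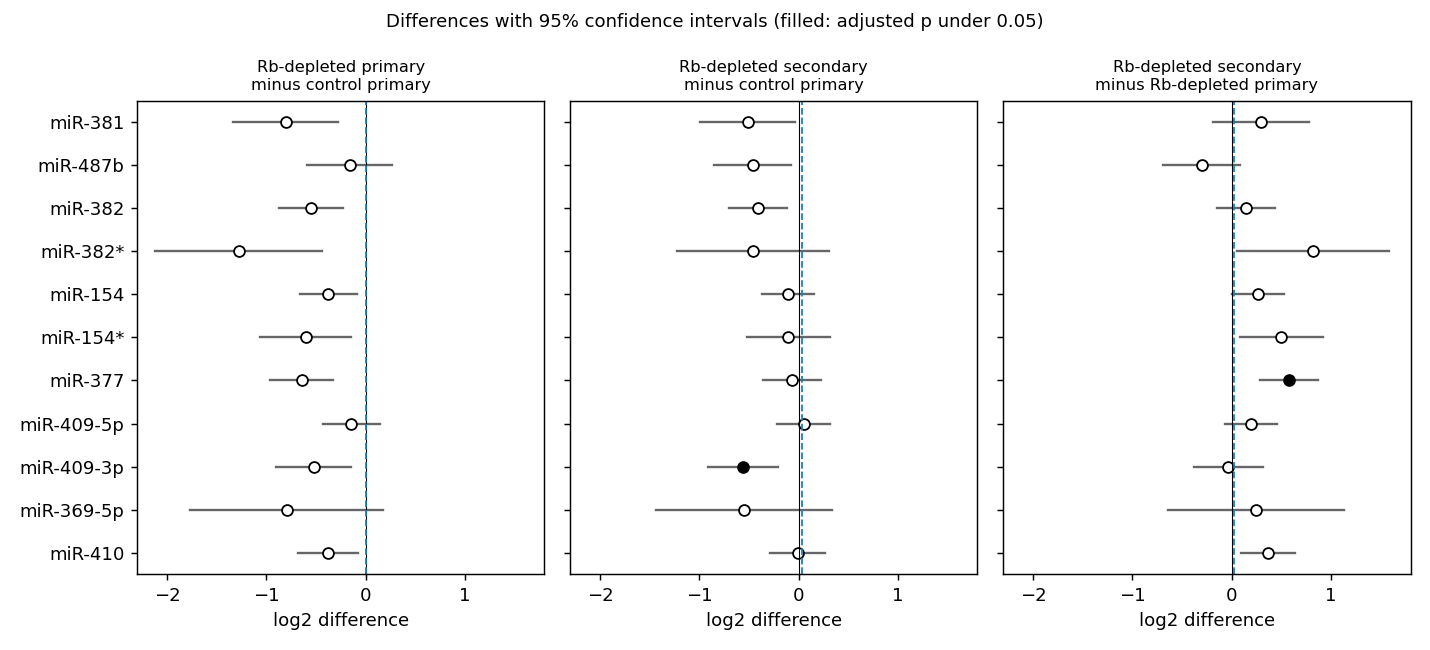
Log2 differences (horizontal axes) of the 11 members (vertical axis) in the 3 comparisons of groups. Bars are 95% confidence intervals from limma, filled points have an adjusted p under 0.05, and dashed lines mark the median of all 252 miRNAs. All 11 points lie below 0 between Rb-depleted primary and control cells, where none is filled, while miR-409-3p is filled in secondary against control cells and miR-377 in secondary against Rb-depleted primary cells.

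Secondary cells add sphere passage to Rb depletion. Between secondary and control cells 1 of 11 members passed the test, against 22.6% of all 252 miRNAs (9.52% as lower), and it was miR-409-3p. The log2 signal of miR-409-3p was 5.93, 6.17 and 5.92 in secondary cells, below both control arrays (6.62 and 6.51). It fell by 0.56 on the log2 scale (SE 0.14, limma adjusted p 0.0402), and its values in secondary cells overlapped those of Rb-depleted primary cells (difference -0.04, limma adjusted p 0.889). The call was lost when control replicate 1, control replicate 2, secondary replicate 1 or secondary replicate 3 was left out, with limma adjusted p-values from 0.0323 to 0.211 over the 7 arrays left out in turn.

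In secondary cells some members read near the control level and others below it, a sorting by their values that was not tested. A lower mean than in control cells was found for 10 of 11 members (46.4% of all miRNAs). Their median log2 difference was -0.41 (0.032 over all 252 miRNAs), and it was -0.21 with the same probes summed on every array. The secondary and control arrays did not overlap for 6 of 11 members, against 52.0% of all miRNAs, and 5 of them were lower, against 22.2%. The sixth, miR-409-5p, was higher. That difference was small (0.05, limma adjusted p 0.770) and turned negative under other scalings, for instance -0.14 after scaling to the 75th percentile of all mouse miRNAs.

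Lower in all secondary arrays than in both control arrays, but not past the adjusted threshold, were miR-382, miR-381, miR-487b and miR-369-5p. For miR-382 the secondary arrays read 6.17, 6.36 and 6.17 (difference from control -0.41, SE 0.12, limma adjusted p 0.0612). For miR-381 they read 4.36, 4.78 and 4.40 (difference -0.51, limma adjusted p 0.123), and for miR-487b 4.93, 5.34 and 5.35 (difference -0.46, limma adjusted p 0.0969). The secondary values of miR-369-5p were 4.24, 4.30 and 4.86 (difference -0.55, 95% confidence interval -1.44 to 0.33, limma adjusted p 0.313), and with the same probes on every array the difference was -0.31 (limma adjusted p 0.152). For miR-487b the secondary arrays also lay below both Rb-depleted primary arrays, the only member for which that was so in the deposited values. That difference was -0.30 (limma adjusted p 0.214), and with the same probes on every array it was -0.065 (limma adjusted p 0.637).

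Near the control level were miR-410, miR-377, miR-154 and miR-154*. The secondary arrays read 6.82, 6.90 and 6.92 for miR-410 (difference from control -0.01, 95% confidence interval -0.28 to 0.26) and 7.20, 7.27 and 7.06 for miR-377 (difference -0.07, interval -0.36 to 0.23). They read 6.21, 6.02 and 6.21 for miR-154 (difference -0.11, interval -0.37 to 0.15) and 5.38, 5.35 and 5.54 for miR-154* (difference -0.10, interval -0.52 to 0.32). Each of these intervals includes 0, as does that of miR-369-5p. The interval of miR-154* also includes the differences of miR-382 (-0.41) and miR-381 (-0.51), so the sorting has no sharp border. The secondary arrays of miR-382* read 4.20, 4.99 and 4.11 and overlapped the control arrays (difference -0.46, limma adjusted p 0.331).

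Compared with Rb-depleted primary cells, 9 of 11 members had a higher mean in secondary cells (53.6% of all miRNAs did), with a median log2 difference of 0.27 (0.021 over all miRNAs). The groups did not overlap for 7 of 11 members, against 51.2% of all miRNAs, and 6 were higher, against 27.0%. Of the 11, 1 passed the test, against 20.2% of all miRNAs (12.7% as higher), and it was miR-377. With secondary arrays at 7.20, 7.27 and 7.06 and primary arrays at 6.74 and 6.45, it rose by 0.58 (SE 0.12, limma adjusted p 0.0294), or 1.49-fold. That call was lost when control replicate 1, control replicate 2, Rb-depleted primary replicate 2, secondary replicate 1 or secondary replicate 3 was left out (limma adjusted p from 0.0339 to 0.111 over the 7 arrays), and the difference stayed between 0.43 and 0.72.

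The next members by adjusted p were miR-410 (difference 0.37, SE 0.11, limma adjusted p 0.0669) and miR-154* (difference 0.50, SE 0.17, limma adjusted p 0.0812). Both were higher on all 3 secondary arrays than on both primary arrays. The difference was 0.81 (SE 0.31, limma adjusted p 0.106) for miR-382* and 0.27 (SE 0.11, limma adjusted p 0.121) for miR-154, also with no overlap. With the same probes on every array that of miR-382* was 0.42 (limma adjusted p 0.198). For miR-382 (0.14, limma adjusted p 0.409) and miR-369-5p (0.24, limma adjusted p 0.664) the groups overlapped. Both differences were below 0 without normalization (-0.081 and -0.034), where the median of all 252 miRNAs was -0.18. The median of the members between secondary and Rb-depleted primary cells was 0.058 without Rb-depleted primary replicate 2 and 0.15 with the same probes on every array. Its size thus depended on 1 array and on the processing. Without normalization that median was 0.076, against -0.18 over all 252 miRNAs, so this value includes a shift of the arrays as a whole. The 3 comparisons share arrays with one another, so their values are given side by side and not as independent of each other.

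All 4 of those members near the control level in secondary cells come from hairpins inside Mirg, as does miR-409-5p. From the same host, miR-409-3p and miR-369-5p were below both control arrays on all 3 secondary arrays. A relation between the host and the level was not tested. In the moderated F-test over the 3 groups, 7 of 11 members (63.6%) had a Benjamini-Hochberg adjusted p under 0.1 in limma, against 43.3% of all 252 miRNAs. They were miR-377 (adjusted p 0.0338), miR-382 (0.0570), miR-409-3p (0.0605), miR-381 (0.0763), miR-382* (0.0768), miR-410 (0.0845) and miR-154* (0.0905).

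The slides add a limit to what secondary cells can show. Secondary replicate 1 was hybridized on the slide of the 4 primary arrays, and secondary replicates 2 and 3 on a second slide. On the first slide alone, secondary replicate 1 was below both control arrays for 9 of 11 members, as it was for 36.5% of all 252 miRNAs. It differed by -0.64 from the control mean for miR-409-3p, and was 0.60 above the mean of the Rb-depleted primary arrays for miR-377. With slide as a term the difference of miR-409-3p from control cells was -0.64 (limma adjusted p 0.126) and that of miR-377 from Rb-depleted primary cells was 0.60 (limma adjusted p 0.136). Both calls were thus lost. These differences are those of secondary replicate 1 given above, not a second result. The second slide held only secondary arrays, so with slide as a term that 1 array alone sets the secondary level.

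The arms of miR-154 kept overlapping ratios in the 3 groups. Within each array, the log2 signal of the 5p arm exceeded that of the 3p arm by 0.85 and 0.61 in control cells, by 0.79 and 1.11 on Rb-depleted primary arrays, and by 0.83, 0.66 and 0.67 in secondary cells. Each pair of groups overlapped. The arm difference in Rb-depleted primary cells exceeded that of control cells by 0.23 (exact permutation test, two-sided, p = 0.667, where 2 arrays against 2 cannot go below 0.333). In secondary cells it differed from control cells by -0.0054 (exact permutation test, p = 1) and from Rb-depleted primary cells by -0.23 (exact permutation test, p = 0.4, where 3 arrays against 2 cannot go below 0.2). Adjusted over the 6 arm comparisons, all these p-values were 0.8 or 1.

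The arms of miR-382 seemed to part in the deposited values. The 5p arm exceeded the 3p arm by 1.86 and 1.63 in control cells, by 2.37 and 2.57 on Rb-depleted primary arrays, and by 1.97, 1.37 and 2.06 in secondary cells. The Rb-depleted primary arrays lay above all others. The arm difference was 0.73 larger than in control cells (exact permutation test, two-sided, p = 0.333, the smallest possible) and secondary cells were 0.67 below Rb-depleted primary cells (exact permutation test, p = 0.2, the smallest possible). With so few arrays no exact permutation test of the arms could pass a threshold of 0.05, and the adjusted p was 0.8 for both.

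Much of the miR-382 difference followed the way in which the scanner software summed probes. The total gene signal of a miRNA was the sum of only those of its probes whose signal exceeded 3 times its error on that array, a rule that rebuilt the deposited totals of all 696 mouse miRNAs to within a relative difference of 8.0e-06. Both probes of miR-382* entered the sum on both control arrays and on secondary replicate 2, whereas 1 probe did on both Rb-depleted primary arrays and on secondary replicates 1 and 3. The brighter probe read 23.3 and 28.7 intensity units in control cells, 16.2 and 10.6 on Rb-depleted primary arrays, and 15.8, 17.2 and 14.5 in secondary cells. The dimmer probe, left out on those 4 arrays, still read 7.18 and 3.95 in Rb-depleted primary cells, against 11.2 and 12.1 in control cells and 6.26, 7.64 and 5.16 in secondary cells.

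With only the probe detected on all 7 arrays, the arms of miR-382 differed by 2.37 and 2.08 in control cells, 2.24 and 2.52 on Rb-depleted primary arrays, and 2.15, 1.98 and 2.22 in secondary cells. The Rb-depleted primary arrays then overlapped the control arrays, and the difference between these groups shrank from 0.73 to 0.16 (exact permutation test, p = 0.667). With all probes summed on every array it was 0.081. The secondary arrays stayed below the Rb-depleted primary arrays, without overlap but close to them, by a difference of -0.27 with the fixed probes and -0.24 with all probes in place of -0.67 (exact permutation tests, p = 0.2 for each, the smallest possible). The high value of miR-382* on secondary replicate 2 in the deposited table (4.99, against 4.20 and 4.11 on the other secondary arrays) likewise fell on the secondary array on which both probes were summed. For miR-154, whose probe number did not vary, the difference between Rb-depleted primary and control cells was 0.21 with the fixed probes, close to the 0.23 in the deposited values.

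**Figure D3:**
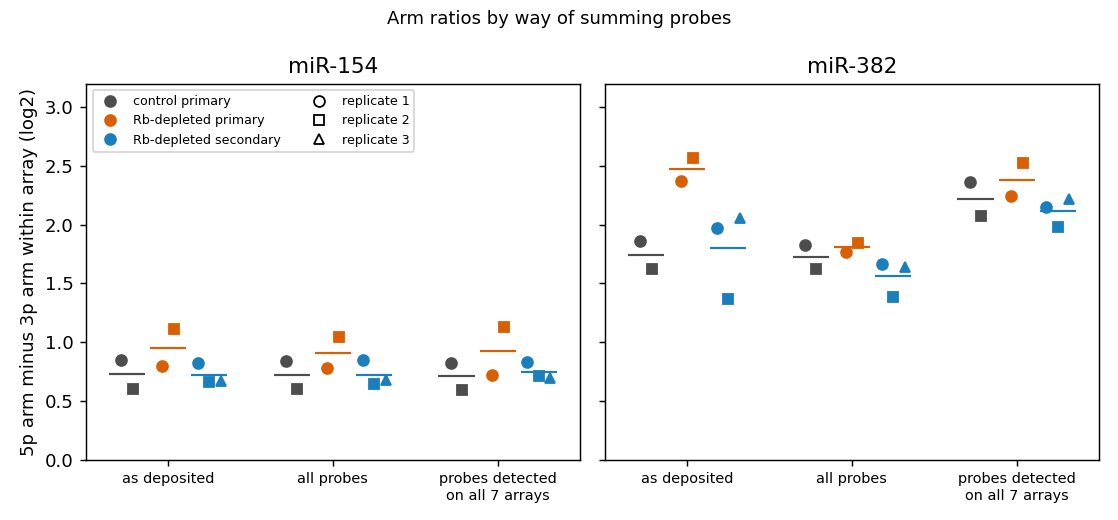
Log2 signal of the 5p arm minus that of the 3p arm within each array (vertical axis) for miR-154 and miR-382, by way of summing probes (horizontal axis), with arrays as points and group means as lines. The Rb-depleted primary arrays of miR-382 stand above the other arrays in the deposited values (2.37 and 2.57) and overlap the control arrays when the same probes are summed on every array.

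The number of probes summed varied between arrays for 3 of the 11 members, miR-382*, miR-369-5p and miR-487b, and for 17.1% of the 252 miRNAs. For miR-369-5p 1 probe was summed on Rb-depleted primary replicate 2 and secondary replicates 1 and 2, which were the 3 lowest arrays of that miRNA. With fixed probes its difference between Rb-depleted primary and control cells was -0.46 (limma adjusted p 0.129) in place of -0.80. For miR-487b 1 probe was summed on secondary replicate 1, its lowest array, and its difference between secondary and control cells was -0.21 (limma adjusted p 0.144) in place of -0.46. The lower level of all 3 in Rb-depleted primary cells kept its direction.

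**Figure D4:**
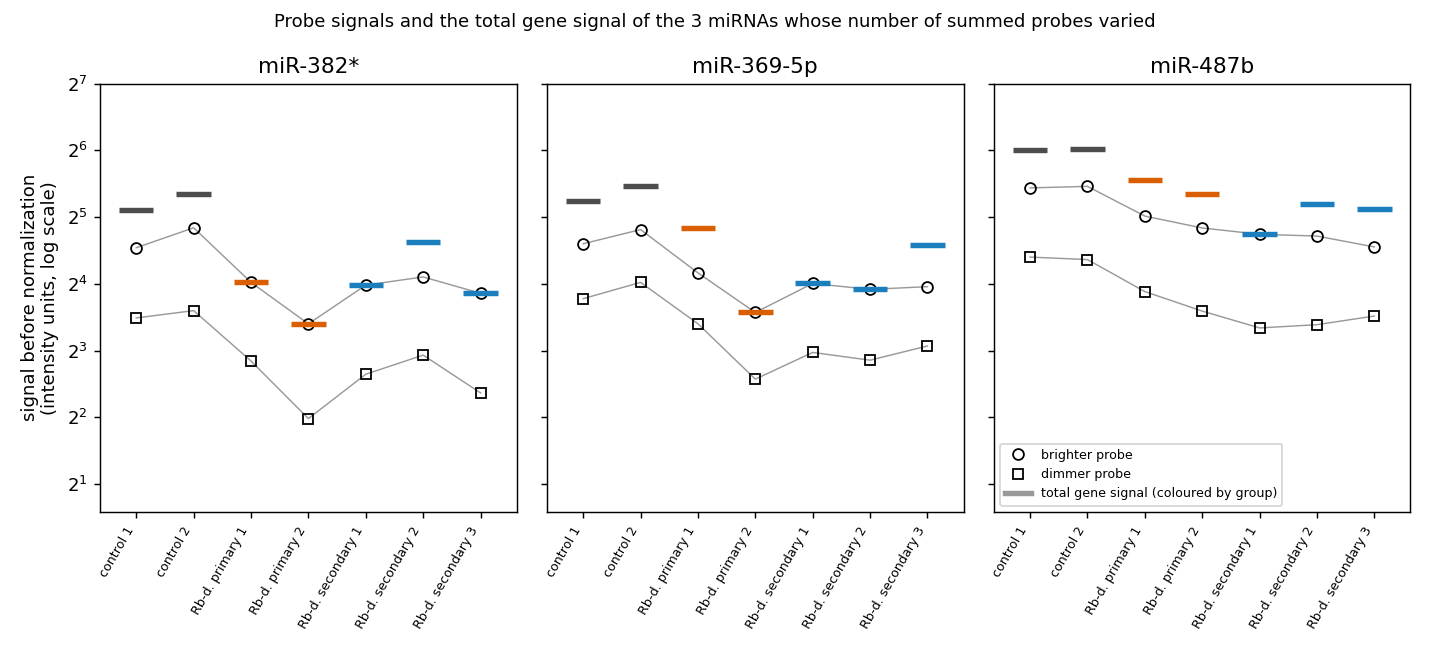
Signal before normalization (intensity units, log scale, vertical axis) of the brighter and the dimmer probe of miR-382*, miR-369-5p and miR-487b on each array (horizontal axis), with the total gene signal as a bar coloured by group. Where the bar sits on the brighter probe only that probe was summed, as for miR-382* on both Rb-depleted primary arrays (16.2 and 10.6 intensity units).

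The arms of miR-409 were looked at after their values were seen and are given without a test. Here the 3p arm was the brighter one, and the 5p arm minus the 3p arm was -1.88 and -1.75 in control cells, -1.45 and -1.42 on Rb-depleted primary arrays, and -1.15, -1.33 and -1.13 in secondary cells. The arms were closest in secondary cells, where miR-409-3p was lower than in control cells and miR-409-5p was not. With fixed probes the control arrays (-1.76 and -1.68) were still the lowest, while Rb-depleted primary (-1.38 and -1.39) and secondary arrays (-1.27, -1.45 and -1.11) overlapped. Both probes of each arm were already summed on every array in the deposited values, so fixing the probes left these signals unchanged. The new values came from normalizing again after other miRNAs had changed.

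Outside the processed table, miR-134-5p was close to the limit of detection. Its total gene signal was 9.40 and 15.9 intensity units in control cells, 5.94 and 3.48 on Rb-depleted primary arrays, and 3.96 and 3.87 in secondary replicates 2 and 3, and it was not detected in secondary replicate 1. The lowest signals called detected on the arrays were between 3.38 and 5.37 units. Control cells thus held the highest values, with 2 probes summed on control replicate 2 and 1 on the other arrays with a detected signal. In a fit of 312 mouse miRNAs with a floor of 1 on the signal, its log2 difference from control cells was -2.04 in Rb-depleted primary cells (limma adjusted p 0.278) and -1.75 in secondary cells (limma adjusted p 0.214). These sizes depend on the floor and on the number of probes summed. Its only probe with a signal over 1 on every array differed from control cells by -1.13 in Rb-depleted primary and -1.30 in secondary cells, before normalization.

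The members did not all move together across the 7 arrays. Pearson's r between pairs of members, given as a description over 7 arrays of 3 groups that share slides and normalization, ran from -0.39 (miR-487b with miR-409-5p) to 0.98 (miR-381 with miR-382). Every negative r was with miR-487b, whose number of summed probes varied. Among pairs without miR-487b the lowest r was 0.32 (miR-409-5p with miR-409-3p). The mean deviation of the 11 members from their own averages was 0.27 and 0.30 in control cells, -0.098 and -0.47 on Rb-depleted primary arrays, and -0.10, 0.091 and -0.0004 in secondary cells. The 5 other miRNAs of the table whose levels followed that mean profile most closely were miR-541 (r = 0.976), miR-300 (0.968), miR-376b (0.967), miR-337-3p (0.939) and miR-341 (0.934). All 5 are other miRNAs of the Dlk1-Dio3 cluster that the rule does not name.

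The rest of that cluster, meaning the listed miRNAs that the rule does not name, had 27 rows in the table. The span of the segment holds 16 annotated miRNA genes, against 10 hairpins named by the rule, of which that of miR-409 is not in the annotation. Some of the rest may therefore lie between the members and not outside the span. In Rb-depleted primary against control cells 26 of them were lower (48.8% of all 252 miRNAs), with a median log2 difference of -0.52 (members -0.55). As lower, 2 passed the limma test, against 1.19% of all 252. In secondary against control cells their median was -0.16 (members -0.41). There 3 passed, 2 as lower and 1 as higher, against 22.6% of all 252 (9.52% as lower). In secondary against Rb-depleted primary cells the median was 0.33 (members 0.27). In that comparison 5 passed, 4 as higher and 1 as lower, against 20.2% of all 252 (12.7% as higher). In the F-test 16 of 27 passed (59.3%), against 43.3% of all 252. The difference between the members and the rest of the cluster was not tested.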

How the data were processed

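RNA was labelled with Cy3 and hybridized to Agilent mouse miRNA arrays (release 15) by the authors. They deposited log2 values of 252 mouse miRNAs after quantile normalization in GeneSpring, and the scanner's intensity values for each probe and miRNA. The file headers name Feature Extraction 11.0.1.1 and the submitters' processing notes 10.7.3.1. The 11 control rows of the table were left out, and its columns were matched to samples through the scanner file each names. Quantile normalization of 718 scanner features gave the deposited log2 values to within 3.2e-06.

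The deposited log2 values were fitted in limma 3.58.1 (R 4.3.3) with 3 group means over all 7 arrays and 252 miRNAs. Pairs of groups were tested at a Benjamini-Hochberg adjusted p of 0.05, and the 3 groups by F-test at 0.1. Arm differences within arrays were compared by two-sided exact permutation tests (scipy 1.17.1). The fit was tested on simulated data. The members and lists were chosen with earlier results of these data known. All members were named, the rest of the cluster was summarised by counts and medians, and the 5 other miRNAs nearest in profile were named. Hairpins were placed with GENCODE vM1 on NCBIM37, and that of miR-409 by an exact match of the RefSeq hairpin. Sequences of miR-487b-3p and miR-485-5p were not used here. Alternatives were other scalings, a floor of 1, the replicate number or slide as a term, trend and robust moderation and each array left out. Summing all probes, or those detected on all 7 arrays, was added after seeing the data. The number of arrays limits the precision.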

Additional observations from a re-analysis of the deposited data

Results flagged for a closer look

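MiR-377 was singled out because the test of the difference between secondary and Rb-depleted primary cells itself passed (difference 0.58, limma with Benjamini-Hochberg adjustment, adjusted p 0.0294). Its level was higher on all 3 secondary arrays than on both primary ones. Relative to control cells, it was lower by a log2 difference of -0.64 in Rb-depleted primary cells (limma adjusted p 0.0950) and of -0.07 in secondary cells (limma adjusted p 0.715).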

How the results depend on the processing

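Of 187 differences of single members per comparison under 17 alternatives, 186 kept their direction between Rb-depleted primary and control cells, 179 between secondary and control cells, and 179 between secondary and Rb-depleted primary cells. Some of these agreements were fixed in advance. Trend and robust moderation, or leaving out an array of the group not compared, cannot change a difference of group means. The slide term and the replicate block also left the contrast of Rb-depleted primary with control cells unchanged, for instance -0.81 for miR-381. The counts therefore include alternatives that could not have turned a direction. The cause of the changes listed here was not tested except where the probes summed are named. In parentheses beside a count stands the share of all miRNAs that passed in the same fit. Without normalization, 7 members passed between Rb-depleted primary and control cells (10.7%), 8 between secondary and control cells (45.2%), 0 between secondary and Rb-depleted primary cells (17.9%), and 11 in the F-test (58.7%). Their medians were -0.87, -0.95 and 0.076, against -0.26, -0.46 and -0.18 over all miRNAs. Scaling to the 75th percentile of all mouse miRNAs gave 3 calls (22.2%) between secondary and control cells. The fit of 312 miRNAs gave 0 there (17.0%) and 3 in the F-test (30.8%). With slide as a term 0 members passed between secondary and control cells (2.38%) or secondary and Rb-depleted primary cells (0.0%), and 1 in the F-test (9.52%). Summing all probes gave 3 calls (25.0%) and a median of -0.25 between secondary and control cells, and fixed probes gave medians of -0.21 there and 0.15 against Rb-depleted primary cells.

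Some small differences turned. The difference of miR-409-5p between secondary and control cells was -0.14 and -0.17 after scaling to the 75th percentile of all or of detected miRNAs, -0.00075 after quantile normalization of the table alone, -0.060 with all probes, -0.11 with fixed probes and -0.62 without normalization. Between secondary and Rb-depleted primary cells, miR-382 and miR-369-5p were at -0.081 and -0.034 without normalization. Without normalization the medians over all miRNAs were -0.46 in the first of these comparisons and -0.18 in the second. The arm difference between secondary and control cells was 0.036 (fixed probes), 0.021 (quantile normalization of the table alone) and 0.10 (slide) for miR-154, and -0.16 (all probes) and -0.11 (fixed probes) for miR-382.

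The replicate numbers were not shown to pair the arrays: same-numbered arrays correlated at 0.134, -0.0172 and -0.0697 in their deviations from group means. With the replicate block 0 members passed in any comparison (0.0% to 1.59% of all) or in the F-test (2.38%), the median between secondary and control cells was -0.30, the arm differences there were 0.020 (miR-154) and -0.076 (miR-382), and miR-409-3p differed by 0.0097 between secondary and Rb-depleted primary cells.

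With each array left out in turn, an arm left with 1 array was assumed to vary like the others. The count of members past the test ranged from 0 to 4 between Rb-depleted primary and control cells (0.0% to 8.73% of all), from 0 to 3 between secondary and control cells (0.397% to 29.4%) and between secondary and Rb-depleted primary cells (0.794% to 26.2%), and from 0 to 8 in the F-test (13.1% to 49.2%). The medians ranged from -0.69 to -0.35, from -0.47 to -0.30 (secondary against control) and from 0.058 to 0.52. The arm difference between secondary and control cells ranged from -0.12 to 0.11 for miR-154 and from -0.076 to 0.27 for miR-382. Single members that turned were miR-409-5p between Rb-depleted primary and control cells (0.0095 without Rb-depleted primary replicate 2), miR-410 between secondary and control cells (-0.030 to 0.021), and, between secondary and Rb-depleted primary cells, miR-382 (-0.00066 to 0.28), miR-369-5p (-0.28 to 0.76) and miR-409-3p (-0.20 to 0.13).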
